A study of Solanum tuberosum with 11 samples.

Results

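A set of 131 abundant potato transcripts was listed at nearly constant levels in tuber discs of periderm and apical bud after a chemical treatment. In all, 35091 transcripts were measured by RNA sequencing. The 131 were chosen by their listed levels alone. Each had a mean level of at least 300 over the 4 conditions of the authors' deposited table, and its highest level was at most 1.3 times its lowest. Transcripts that the table marks in any comparison with the status HIDATA (too much data at the locus to process), 5 in all, were dropped first. The level minimum was met by 347 transcripts, and 131 of them, 37.8%, also met the limit on the ratio. The steadiness of the set was therefore put in by the choice and is given below as a description, with no test. It holds for the listed values: by the errors of the authors' test, 32 of the 131 stayed within a 2-fold change in all 6 comparisons.

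The tissue was a thin disc of periderm and apical bud from dormant, greenhouse-grown minitubers (very small seed tubers) of Solanum tuberosum cultivar Atlantic. Per the labels, intact tubers received 5 µl of dimethyl sulfoxide (DMSO, the solvent) with or without 10 µg of NG, the compound that the labels spell 1-(alpha-ethylbenzy)-3-nitroquanidine. The 11 libraries are 3 from DMSO tubers at time zero, and 3, 2 and 3 from NG tubers at days 1, 4 and 7. The DMSO tubers have no later time, so NG, the injection and elapsed time cannot be told apart. The deposited table names 1 control condition (Controls) and the NG conditions NG 1-Day, NG 5-Days, NG 7-Days. No label names a day 5, so NG 5-Days is kept as the table's own name and is not equated with day 4. Each condition has 1 value per transcript, already combined from the libraries by the authors, and there is no replicate value and so no SD. The number of tubers per library was not given in the sources used here.

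A potato tuber is a swollen underground stem, and its buds stay dormant for a time after harvest before they sprout. A disc of this kind holds several tissues, among them the corky periderm, starch-storing parenchyma and the bud's meristem. Very abundant plant transcripts commonly encode proteins that most cells use, such as ribosomal proteins, elongation factors, ubiquitin and enzymes of sugar breakdown. In tubers they also encode storage proteins such as patatin and protease inhibitors. Transcripts that stay level across treatments are the kind used as reference genes, to which other measurements are scaled. Which of these classes the 131 transcripts belong to is not known here. The table pairs its identifiers with no gene names, and none of them (0) matched the 32873 genes of the RefSeq table for assembly SolTub_3.0. For the same reason the labelled tissue could not be checked against marker genes, and no sequence is shown.

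**Figure D1:**
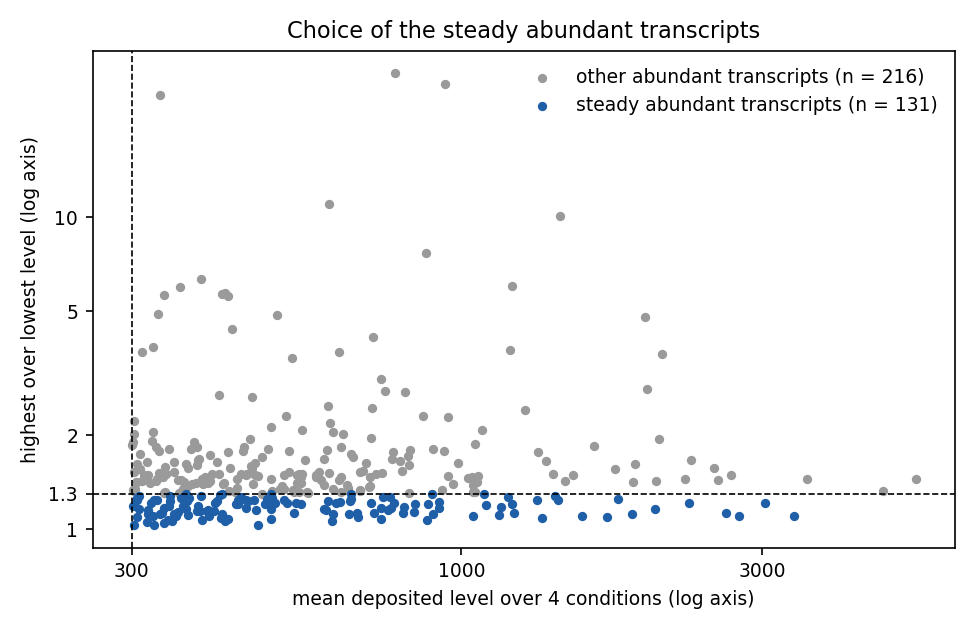
Each point is 1 of the 347 transcripts with a mean level of at least 300, by its mean deposited level (horizontal, log axis) and its highest over lowest level in the 4 conditions (vertical, log axis). The dashed lines are the limits of the choice; the 131 steady transcripts (blue) lie below the ratio limit of 1.3 at every level up to 3372, and 216 other abundant transcripts (grey) lie above it.

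Within the limits the set was wide in level and mostly well inside the ratio limit. By the authors' deposited table mean levels ran from 301.7 to 3372, with a median of 491, and 22 transcripts had a mean of at least 1000. Of the 100 transcripts with the highest mean level, 40 belonged to the set. The median ratio of highest to lowest level was 1.18, and 73 transcripts stayed within a ratio of 1.2 and 21 within 1.1. The ratio had almost no relation to the mean level across the 131 transcripts (Spearman's rho 0.034; they share the same libraries). Together the 131 made up 14.4% of the summed level in Controls, and 13.96%, 15.2% and 14.9% of it in the NG conditions in order of day. The sum over the 35086 transcripts left without those marked HIDATA was 633321, 642600, 613261 and 633105. The transcripts left out weighed unevenly on the conditions: PGSC0003DMG400008917 was listed at 4510.4 in Controls and at 0 in NG 7-Days. These are levels combined over libraries and not amounts per cell, so fewer cells of a type and less RNA per cell cannot be told apart.

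At the edges of the choice the transcripts were close to one another. PGSC0003DMG400009581 and PGSC0003DMG400001191, just inside the ratio limit, had ratios of 1.2996 and 1.2993. PGSC0003DMG400000286 and PGSC0003DMG400030802, just outside it, had ratios of 1.3007 and 1.3024. PGSC0003DMG400015731 and PGSC0003DMG400029659 entered with mean levels of 301.7 and 302. PGSC0003DMG400008501 and PGSC0003DMG400009775 stayed out with mean levels of 298.4 and 298.1.

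Steadiness of this degree was not confined to the most abundant transcripts. A ratio of at most 1.3 was found in 38.6% of the 57 transcripts with a mean level of 1000 or more and in 37.6% of the 290 between 300 and 1000. It was found in 43.3% of the 727 between 100 and 300, and in 50.1% of the 2534 between 30 and 100, the highest share of any class. Below that the share went down again, to 47.5% between 10 and 30, 32.2% between 3 and 10, and 17.0% between 1 and 3. The median ratio followed the same course, at 1.43 in the highest class, 1.298 between 30 and 100, and 1.799 between 1 and 3.

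The most abundant transcript of the set was PGSC0003DMG400026911, at chromosome 6, 47464348 to 47464939 (coordinates are those of the deposited table, with a genome build not given in the sources used here). Its level in the authors' deposited table was 3292 in Controls, then 3281 (NG 1-Day), 3295 (NG 5-Days), 3619 (NG 7-Days), the order used for all levels below. The first 3 of these listed values are nearly equal. The last is higher, by less than its standard error from the authors' test, 0.60 (log2). PGSC0003DMG402001494, at chromosome 9, 49096713 to 49097774, had levels of 3389, 2983, 2802 and 2951 in the same order in the authors' deposited table. Here Controls was the highest condition, and all 3 NG conditions lay below it.

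PGSC0003DMG400001985 (chromosome 11, 5803092 to 5806325) was listed at 2766, 2626, 2899.8 and 2759 in the authors' deposited table. PGSC0003DMG400000678 (chromosome 7, 42221648 to 42223129) was listed at 2644, 2481, 2803 and 2600.1 in the authors' deposited table. Both were highest in NG 5-Days, and lowest in NG 1-Day as deposited but in NG 7-Days with the conditions scaled to equal median log2 levels. PGSC0003DMG400001849 (chromosome 8, 37391099 to 37392826) stood at 2111, 2077, 2485 and 2513 in the authors' deposited table, with both later conditions above both earlier ones. PGSC0003DMG400008351 (chromosome 10, 43968106 to 43969054) had the same order of early and late conditions, at 1678, 1564, 1951 and 1887 in the authors' deposited table.

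Among the 8 most abundant, 2 lay 144 kb apart on chromosome 1 and differed in direction. PGSC0003DMG400024716, at 70397145 to 70398024, had levels of 2165, 2085, 1869.7 and 1993 in the authors' deposited table, lower in both later conditions. PGSC0003DMG400024723, at 70542372 to 70545164, had levels of 1764, 1776, 1969 and 1942 in the authors' deposited table, higher in both. These directions were the same after scaling the conditions to equal median log2 levels or to equal sums, but they are small beside the errors. The standard errors from the authors' test in NG 7-Days were 0.41 and 0.55 (log2). The lowest unadjusted p in that test were 0.48 and 0.56, both for NG 5-Days against NG 1-Day.

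The 4 transcripts with the smallest ratio were of moderate level within the set. PGSC0003DMG400027010, at chromosome 6, 47409959 to 47416029, had levels of 469, 472, 479.6 and 483 in the authors' deposited table, a ratio of 1.03. It lies 48.3 kb from the most abundant transcript of the set. PGSC0003DMG400011398, at chromosome 9, 43887662 to 43891881, had levels of 319, 328, 329 and 323 in the authors' deposited table, also a ratio of 1.03. PGSC0003DMG400029659 (chromosome 9, 50307714 to 50310354; levels 298, 306, 307 and 297) and PGSC0003DMG400013725 (chromosome 7, 16242645 to 16246742; levels 342, 341, 328 and 338) had ratios of 1.03 and 1.04 in the authors' deposited table. Which condition was highest among these small differences depends on the scaling. As deposited it was NG 7-Days for the first, NG 5-Days for the next 2 and Controls for the last, and with equal median log2 levels it was NG 1-Day for all 4.

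**Figure D2:**
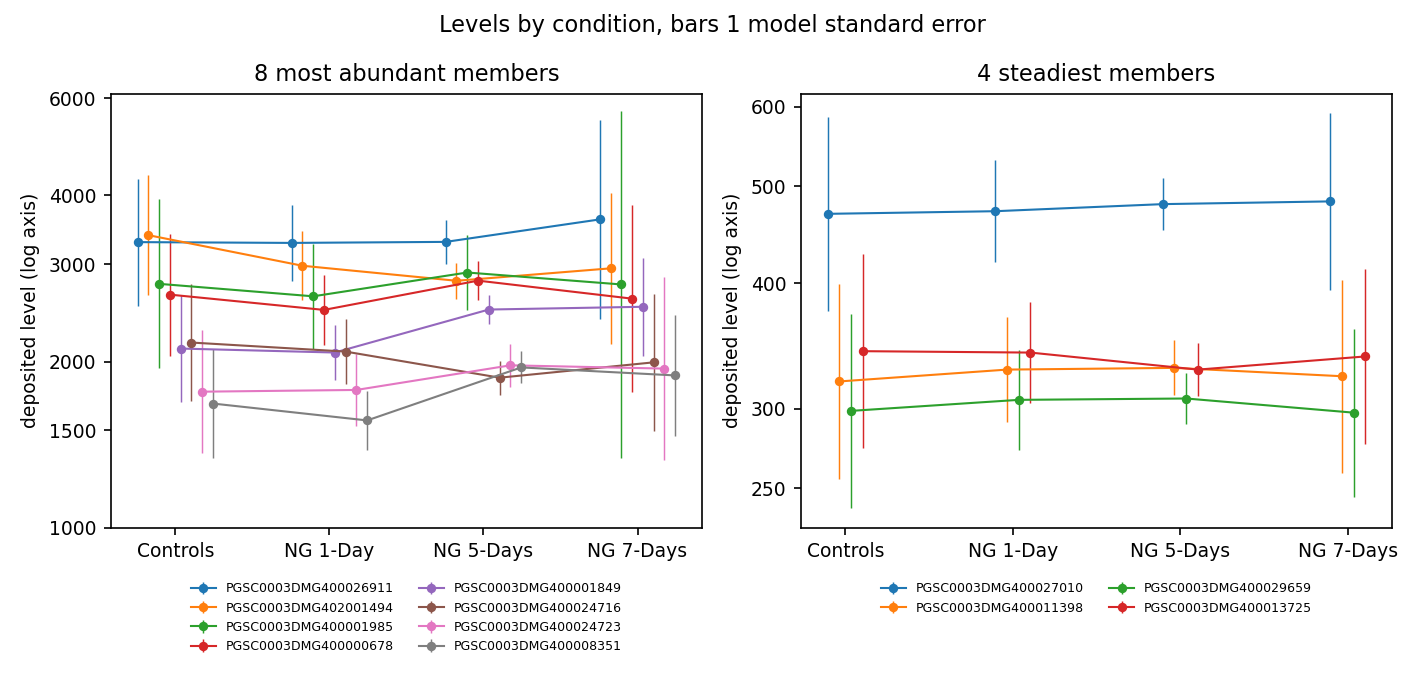
Deposited level (vertical, log axis) in each condition (horizontal) for the 8 most abundant steady transcripts (left) and the 4 with the smallest ratio (right); bars are 1 model standard error either way, solved from the authors' test and not from replicates. The levels of each transcript differ by less than the bars in Controls and NG 7-Days, and the bars are shortest in NG 5-Days.

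The small differences inside the set were not spread evenly over the conditions. NG 1-Day held the lowest level of 56 of the 131 transcripts, NG 5-Days of 35, Controls of 24 and NG 7-Days of 16. The highest level lay in NG 5-Days for 47, in NG 7-Days for 43, in NG 1-Day for 23 and in Controls for 18. With each condition scaled to the same median log2 level, NG 1-Day was lowest in 29 and highest in 46, and NG 7-Days was lowest in 36 and highest in 20, so this order depends on the scaling. Scaled to equal sums of levels, NG 1-Day was still most often the lowest condition and NG 5-Days most often the highest. Among the 216 other abundant transcripts the range was mostly set by NG 1-Day, which was lowest in 100 and highest in 92, and NG 5-Days, lowest in 95 and highest in 88. Controls was lowest in 6 and highest in 14 of these, and NG 7-Days lowest in 15 and highest in 22.

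In their listed levels, most transcripts of the set separated the early from the late conditions. In 63 of 131, both NG 5-Days and NG 7-Days were above both Controls and NG 1-Day, by a median factor of 1.14 between the means of each pair. In 35 both were below, by a median factor of 0.874, and the other 33 were mixed. These median differences are smaller than the median standard error from the authors' test in Controls (25.6% of the level) and in NG 7-Days (27.0%). They are close to that in NG 1-Day (13.2%) and larger than that in NG 5-Days (6.72%). Scaled to equal median log2 level the counts were 47 above and 45 below, and scaled to an equal sum of levels 68 and 30, so the excess of transcripts with higher later levels depends on the scaling. The median log2 level over the 15986 transcripts above 1 in every condition differed from Controls by -0.036, 0.037 and 0.064 in the NG conditions. Equal-median scaling removes these shifts. As deposited, the departures of the same transcripts from their own means had medians of -0.0098 in NG 1-Day and -8.9e-05 in NG 7-Days. Of the 216 other abundant transcripts, 101 had both later conditions above, 101 had both below and 14 were mixed.

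The median offset of the set was small. Measured as log2 level minus a transcript's own mean of 4 log2 levels, the median over the 131 was -0.02 in Controls, -0.04 in NG 1-Day, and 0.04 in each later condition. Over the 15986 transcripts with a level above 1 in every condition the same medians lay between -0.01 and 0. Single transcripts of the set departed by at most 0.25 in either direction, since the ratio limit bounds them.

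**Figure D3:**
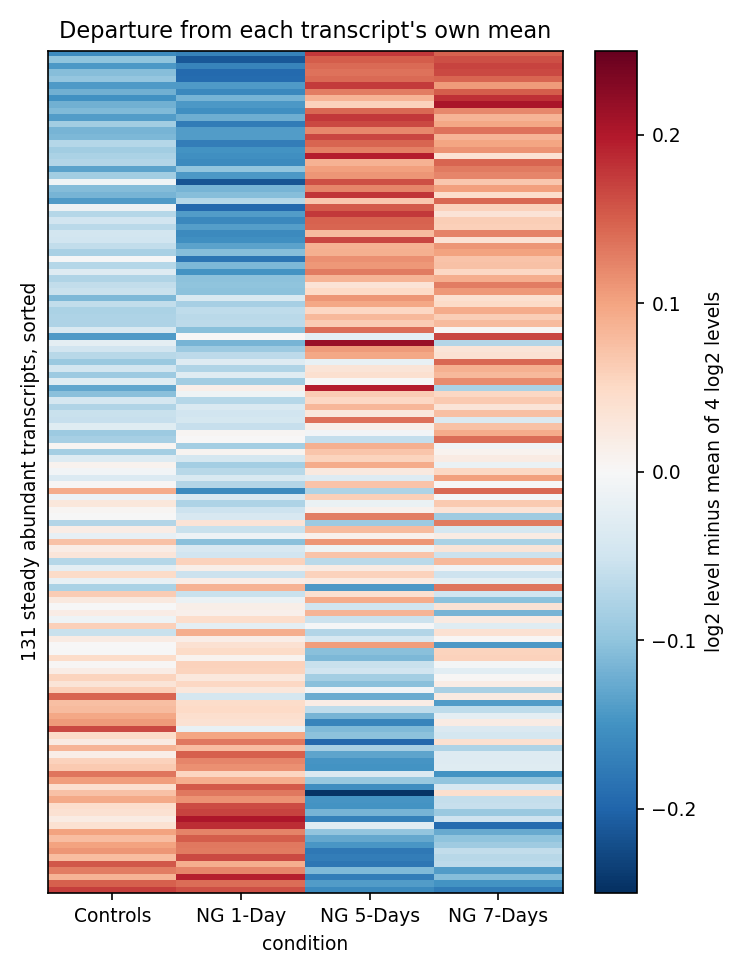
Each line is 1 of the 131 steady transcripts and each column a condition; colour is the log2 level minus the transcript's mean of 4 log2 levels. Sorted by their later levels, the upper lines are low in the 2 left columns and high in the 2 right ones, and the lower lines the reverse, in 63 and 35 transcripts as deposited and in 47 and 45 after scaling to equal medians.

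In the authors' deposited test no transcript of the set was called in any comparison at an adjusted p under 0.05. The rule used these same contrasts, so nothing is read from the 0 calls. Over all tested transcripts the share called was 1.06% for NG 1-Day, 1.47% for NG 5-Days and 0.0150% for NG 7-Days, each against Controls, by the authors' deposited table. By the same table it was 20.0% for NG 5-Days against NG 1-Day, 8.87% for NG 7-Days against NG 1-Day and 4.36% for NG 7-Days against NG 5-Days. At an unadjusted p under 0.05 the count in the set was also 0 in each of the 6 comparisons, and it too was limited by the choice. Over all tested transcripts that share was 3.25%, 7.52% and 0.366% against Controls and 33.9%, 18.7% and 11.3% between NG conditions, in the same order. The lowest unadjusted p of the set in the authors' deposited table was 0.0574, for NG 5-Days against NG 1-Day. All 131 were tested in all 6 comparisons, whereas 188 of the 216 other abundant transcripts were, and 95 of the 216 were called in at least 1, by the authors' deposited table.

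Fold changes of the set were small and differed among the comparisons. The median absolute log2 fold change was 0.06 for NG 1-Day, 0.16 for NG 5-Days and 0.14 for NG 7-Days against Controls. For NG 1-Day it was 0.18 to NG 5-Days and 0.15 to NG 7-Days, and between these later conditions it was 0.08. The other abundant transcripts had 0.16, 0.43 and 0.31 against Controls and 0.58, 0.46 and 0.17 between NG conditions. These medians are over the 190 to 201 of the 216 that were tested in a comparison. Those not tested came mostly from the 45 with a ratio above 2, so many transcripts with large ratios are left out. In both groups the nearest pairs of conditions were Controls with NG 1-Day and NG 5-Days with NG 7-Days. The comparisons share conditions, so these values are not independent of one another. The greatest change in the set was 1.3-fold, from NG 1-Day to NG 5-Days.

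A missed threshold does not show that levels were alike, so the change that the deposited errors still allow was computed. For each comparison the fold change was given its 95% interval from the errors of the authors' test, and the end of the interval farther from no change was taken. For NG 5-Days against NG 1-Day the interval stayed within a 2-fold change in all 131 transcripts, and its far end had a median of 1.51-fold. For NG 1-Day and NG 5-Days against Controls it stayed within 2-fold in 122 each, with medians of 1.74-fold and 1.798-fold. For NG 7-Days it did so in 107 against NG 5-Days, in 85 against NG 1-Day and in 32 against Controls, with medians of 1.73-fold, 1.94-fold and 2.15-fold. In all 6 comparisons at once the intervals of 32 transcripts stayed within 2-fold. Because the set was chosen for small differences, its intervals are centred near no change by construction, and only their width is free. Widths were close to those of the other abundant transcripts: the median standard error for NG 7-Days against Controls was 0.48 (log2) in the set and 0.49 in the others.

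**Figure D4:**
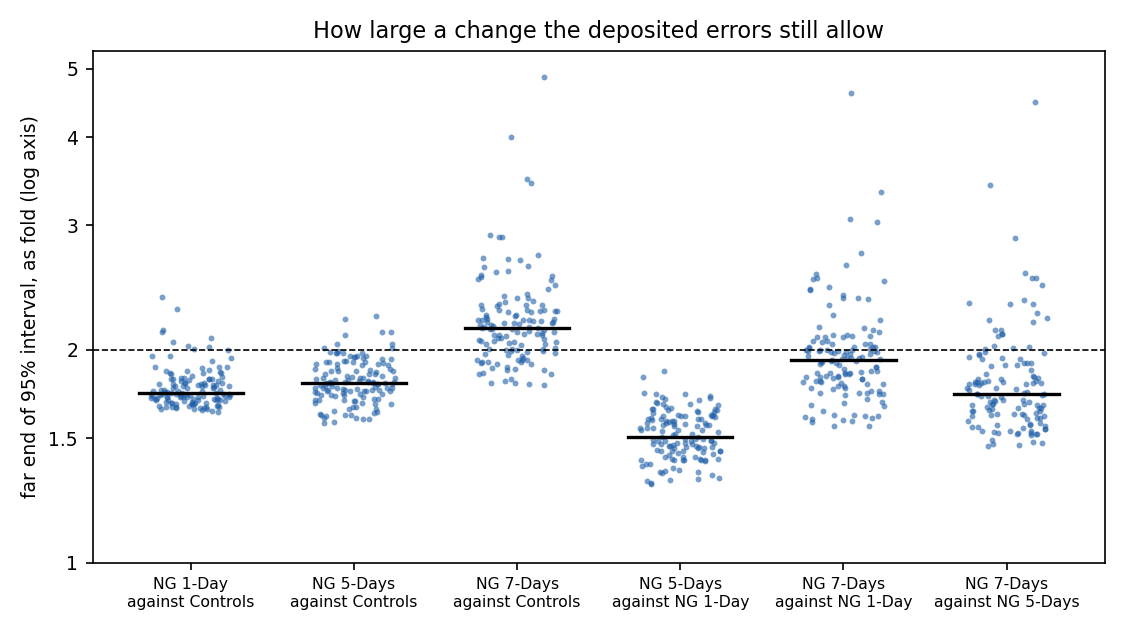
Each point is 1 of the 131 steady transcripts; the vertical axis (log) is the end of its 95% interval farther from no change, as a fold, for each of the 6 comparisons (horizontal), from the errors of the authors' test. Bars are medians and the dashed line is 2-fold: all 131 points lie under it for NG 5-Days against NG 1-Day, and 32 for NG 7-Days against Controls.

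The errors behind these intervals were uneven between the conditions. The median standard error of a steady transcript on the log2 scale was 0.33 in Controls, and 0.18, 0.09 and 0.34 in the NG conditions in order of day. As a share of the level these are 25.6%, 13.2%, 6.72% and 27.0%. NG 5-Days had the smallest error in all 131 transcripts. NG 7-Days had the largest in 81 and Controls in 50. In the other abundant transcripts the medians were 0.34, 0.18, 0.09 and 0.35, so the set was measured with about the same stated precision as they were. These are model errors of the authors' test, and the number of libraries in each is unknown.

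In NG 7-Days the error was larger for more abundant transcripts of the set. Its rank correlation with the mean level across the 131 was 0.51 (Spearman's rho), against 0.35 for the error in Controls; the transcripts share libraries, and this is a description. NG 7-Days errors ran from 0.24 to 1.04 and those in NG 5-Days from 0.08 to 0.23. PGSC0003DMG400001985, the third in level within the set, had the largest errors, at 0.51, 0.31, 0.23 and 1.04 in order of condition. Its far end of the interval was 4.86-fold for NG 7-Days against Controls, although the levels themselves were 2759 and 2766 in the authors' deposited table. PGSC0003DMG400019208, at chromosome 10, 51442146 to 51445452, came next with 0.84 in NG 7-Days, at levels of 1403, 1292, 1379.5 and 1297 in the authors' deposited table.

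Summed over the 4 conditions, the smallest errors belonged to PGSC0003DMG400016534, at chromosome 6, 42835653 to 42836338, and PGSC0003DMG400006207, at chromosome 10, 37717153 to 37717597. Their errors in NG 7-Days were 0.25 and 0.24, and those in Controls, 0.334 and 0.337, were above the median of the set, 0.328. The first had levels of 757, 789, 829 and 852 in the authors' deposited table, lowest in Controls. The second had levels of 365, 322, 396 and 384 in the authors' deposited table. For PGSC0003DMG400027010 the far end of the interval was 1.31-fold from NG 1-Day to NG 5-Days and 1.85-fold from Controls to NG 7-Days. It was picked for the smallest ratio of these same levels, so its narrow bounds follow in part from that choice.

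**Figure D5:**
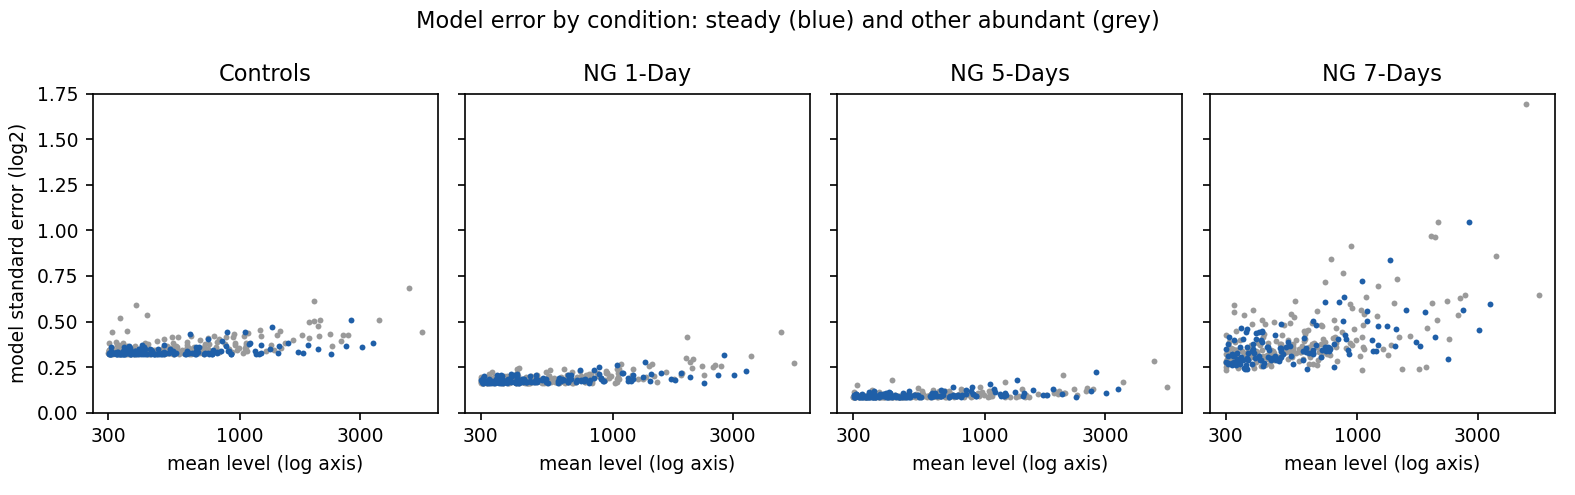
Model standard error on the log2 scale (vertical) against mean deposited level (horizontal, log axis) in each condition, for the 131 steady (blue) and 216 other abundant transcripts (grey). Errors of the set lie between 0.08 and 0.23 in NG 5-Days and spread from 0.24 to 1.04 in NG 7-Days, where they are larger at higher levels.

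Position and locus length were not used by the choice. The set was found on all 12 chromosomes, with 23 transcripts on chromosome 1 (17.6%, against 12.8% of all transcripts), 17 on chromosome 6 (12.98% against 8.84%) and 14 on chromosome 10 (10.7% against 7.39%). Chromosome 4 held 5 (3.82% against 9.20%). The other abundant transcripts were also frequent on chromosomes 1 and 6, at 15.3% and 15.7%. They differed from the set on chromosome 10, with 4.63%, and on chromosome 4, with 9.26%. These shares rest on few transcripts and were not tested.

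The loci of the set were neither the shortest nor the longest. Their median length was 2681 bp, with the middle 50% of them between 1930.5 and 3885 bp. The other abundant transcripts had a median of 2390.5 bp and all 17596 transcripts with a mean level of at least 1 a median of 3702 bp. The shortest locus of the set, 444 bp, belonged to PGSC0003DMG400006207. The longest, 10310 bp, was that of PGSC0003DMG400026532, at chromosome 11, 36920114 to 36930424. This transcript had levels of 408, 414, 355 and 349 in the authors' deposited table and shares its locus with 1 other transcript, PGSC0003DMG400026525, listed at 4.65, 3.87, 6.15 and 5.22. PGSC0003DMG400003081, at chromosome 2, 28989466 to 28998469, had the next longest, 9003 bp, with levels of 309.8, 334, 266 and 314 in the authors' deposited table. In all, 2 transcripts of the set (1.53%) shared a locus with another transcript, against 2.31% of the other abundant transcripts, 8.81% of those with a mean level of at least 1 and 7.04% of all.

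Some members of the set lay side by side. In 5 pairs the loci were within 10 kb of each other, and in 4 of these pairs no other transcript lay between. No such count is given for the other abundant transcripts, so whether close pairs are particular to the set is not known. The closest pair was on chromosome 2, 1.57 kb apart, and its transcripts had opposite orders of early and late conditions. PGSC0003DMG400021420, at 41213255 to 41213934, had levels of 642, 629, 678 and 706 in the authors' deposited table, higher in both later conditions. PGSC0003DMG400021448, at 41215506 to 41219434, had levels of 475, 481, 389 and 422 in the authors' deposited table, lower in both. The next pair was on chromosome 8, 1.98 kb apart, and its transcripts had the same order. PGSC0003DMG400030867, at 34714259 to 34719801, had levels of 368, 357, 409 and 389 in the authors' deposited table. PGSC0003DMG400030868, at 34721779 to 34723988, had 831, 770.1, 990.5 and 998 in the authors' deposited table, a ratio of 1.296, close to the limit. The directions in both pairs were the same under both scalings, but are those of listed levels. The lowest unadjusted p of these transcripts in the authors' deposited test was 0.09, for PGSC0003DMG400030868 in NG 5-Days against NG 1-Day. Whether such neighbours are similar copies between which reads could be divided is not known, since no names or sequences are paired with them.

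The transcripts next to the set, which the choice did not use, had levels below the minimum in 251 cases. Of these, 172 had a mean level of at least 1, and 78 of them (45.3%) had a ratio of at most 1.3. Next to the other abundant transcripts the share was 34.2% of 263, and among all 17249 transcripts with a mean level of at least 1 and below 300 it was 36.9%. The neighbours of the set were somewhat more abundant, with a median level of 14.3 against 10.9 and 9.66, and steadiness varied with level as described above. Applying the share of each class of level to the neighbours of the set gave 39.9%, and to those of the other abundant transcripts 37.7%. The remaining difference was not tested.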

How the data were processed

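RNA from 11 libraries was sequenced. The single deposited table has the column layout of a Cuffdiff table, per the file headers: for each transcript and pair of conditions the authors deposited a level in each condition, a log2 fold change, a test statistic, a p-value and a q-value. The level is a signal per transcript, combined over libraries by the authors before it was deposited; its unit is not named, and this layout usually holds FPKM. Aligner, versions and build were not given in the sources used here, nor was depth, so no interval or floor that needs depth was computed.

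A standard error per condition was solved by least squares for all 347 abundant transcripts, since the squared ratio of log2 fold change to statistic is a sum over 2 conditions (median relative residual per transcript at most 0.0006). Deposited p-values were normal tails to within 2.49e-06, and q-values were Benjamini-Hochberg adjusted over all 118862 tested lines. The solving was checked on simulated data made with this same sum, which cannot show that the authors' errors have this form. Intervals are 95% normal intervals. Python 3.11.15, pandas 2.3.3, NumPy 2.4.6 and SciPy 1.17.1 were used. P-values measure the spread in the authors' model, which may be technical.

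The set, the comparisons and the lists were chosen with earlier results of these data known. Named transcripts follow a rule: the 8 most abundant, the 4 with the lowest ratio, the 2 with the smallest and 2 with the largest summed errors, the 2 longest loci and the shortest, the 2 closest pairs, and the 2 on each side of each limit. A transcript sharing a locus was named after its values were seen. Lists by gene description (storage, periderm, meristem, translation, reference genes) could not be applied, as no identifier has a name.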

Additional observations from a re-analysis of the deposited data

How the results depend on the processing

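The size of the set follows its limits. It was 73 at a ratio of 1.2, 226 at a ratio of 1.5, 446 at a mean level of 100 and 61 at a mean level of 500. Scaling to equal medians gave 140 transcripts, 120 of them shared with the 131, and scaling to equal sums gave 127, with 118 shared. An alternative chosen after seeing the data left out 1 condition at a time: it gave 137 without Controls, 186 without NG 1-Day, 183 without NG 5-Days and 139 without NG 7-Days. Within a 1.5-fold change, the intervals held 0 transcripts of the set in each comparison with Controls and for NG 7-Days against NG 1-Day, 64 for NG 5-Days against NG 1-Day and 6 for NG 7-Days against NG 5-Days. After scaling to equal medians, NG 1-Day was highest in 46 and lowest in 29, and NG 7-Days was highest in 20 and lowest in 36. The count of calls in the set was 0 under the other rules too, which the ratio limit fixes and which shows no stability. Over all transcripts the share called by comparison ran from 0.015% to 15.4% at an adjusted p under 0.01, from 0% to 25.7% with adjustment within each comparison, and from 0.101% to 17.9% with lines marked as not tested included. The median offset of NG 5-Days was 0.04 and its mean 0.02. No paired analysis was possible because the table holds 1 combined value per condition, which also prevents leaving out a library.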

Other observations

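The choice dropped 5 transcripts that the authors' deposited table marks with the status HIDATA in some comparisons, and 2 of them were listed above every transcript of the steady set in 3 conditions. PGSC0003DMG400008917 was in the authors' deposited table at 4510.4 (Controls), 4061 (NG 1-Day) and 4913 (NG 5-Days), and is listed at 0 in NG 7-Days. PGSC0003DMG400022159 was at 4343, 4049 and 3923 in the same conditions and is also listed at 0 in NG 7-Days. Over the 3 conditions with a level their ratios of highest to lowest were 1.21 and 1.11. Another 2, PGSC0003DMG401008909 and PGSC0003DMG402008909, are listed at 0 in NG 1-Day, and the lines with a mark are 3 of 6 for each of these 4 transcripts. A level of 0 in such a line can be a failed estimate, so no fold is given. These transcripts were chosen after their values were seen.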
